A study of Homo sapiens with 12 samples.

Results

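The 4 ID genes, the inhibitory SMAD genes SMAD6 and SMAD7, and SKIL and BAMBI were examined in A375, a human melanoma cell line, after treatment with the compound DdBIC, with hemin, or with both. These 8 genes were picked by symbol from the 20263 genes of the table as feedback genes and targets of TGF-β and BMP signaling, and 7 of the 8 passed the filter on low counts (ID4 did not). All groups were wild-type A375 cells and comprised 3 libraries each, namely untreated cells (Ctrl), cells given DdBIC (written DBIC in the labels), cells given hemin (Hemin) and cells given both (DdBIC+Hemin). Hemin is a soluble form of heme, and DdBIC is a small molecule that was used to induce pyroptosis, a lytic form of cell death. The dose and the duration of the treatments before RNA extraction are not given in the sources used here. All libraries come from 1 cell line, and nothing in the labels says whether the replicates were separate cultures, so the p-values measure only the spread between these libraries, which may be technical.

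ID proteins are helix-loop-helix proteins without a DNA-binding region. They bind E proteins, such as those encoded by TCF3, TCF4 and TCF12, and keep them from DNA. Their genes are direct targets of BMP receptors through SMAD1, SMAD5 and SMAD9, with ID1 and ID3 among the most commonly used readouts of that branch. SMAD6 and SMAD7 encode the inhibitory SMADs, which block activated receptors. SKIL encodes SnoN, a co-repressor that binds SMAD complexes on DNA, and BAMBI encodes a receptor-like membrane protein without a kinase domain that takes the place of a working receptor. All of them are induced by the pathway they restrain or report on in many cell types.

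The genes lie on 8 chromosomes of GRCh38. ID1 (ENSG00000125968) is at chr20:31605283-31606515, ID2 (ENSG00000115738) at chr2:8678845-8684453, ID3 (ENSG00000117318) at chr1:23557918-23559794 and ID4 (ENSG00000172201) at chr6:19837386-19840684. SMAD6 (ENSG00000137834) is at chr15:66702228-66782848, SMAD7 (ENSG00000101665) at chr18:48919853-48950711, SKIL (ENSG00000136603) at chr3:170357715-170396835 and BAMBI (ENSG00000095739) at chr10:28677342-28682939. ID3 and SMAD7 are on the minus strand and the other 6 genes on the plus strand. In GENCODE 29, ID2 and ID4 each overlap a gene on the opposite strand (ID2-AS1 and AL022068.1) and SMAD6 holds a gene in an intron on its own strand (AC013564.1). The use of strand in the counting is not given in the sources used here, so reads of those partners could be counted with the member.

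The sequence before the start is shown for ID1, SMAD6, SKIL and BAMBI, which passed the filter on low counts, have 1 start in the RefSeq table and hold a motif that was searched. At most 30 bases of each printed stretch lie in exons of GENCODE 29. The sequences are RefSeq promoters on GRCh38.p14, read 5′ to 3′ in the direction of the gene, with every match of a searched motif in capitals.
ID1: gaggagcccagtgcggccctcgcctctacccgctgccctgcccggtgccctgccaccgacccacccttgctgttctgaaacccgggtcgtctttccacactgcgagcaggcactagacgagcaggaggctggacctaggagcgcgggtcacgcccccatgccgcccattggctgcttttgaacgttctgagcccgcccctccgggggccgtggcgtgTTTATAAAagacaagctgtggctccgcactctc
SMAD6: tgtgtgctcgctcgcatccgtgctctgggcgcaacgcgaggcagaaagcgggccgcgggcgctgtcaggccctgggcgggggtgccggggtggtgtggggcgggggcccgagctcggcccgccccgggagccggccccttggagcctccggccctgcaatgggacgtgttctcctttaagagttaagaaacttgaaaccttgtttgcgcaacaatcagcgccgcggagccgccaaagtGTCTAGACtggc
SKIL: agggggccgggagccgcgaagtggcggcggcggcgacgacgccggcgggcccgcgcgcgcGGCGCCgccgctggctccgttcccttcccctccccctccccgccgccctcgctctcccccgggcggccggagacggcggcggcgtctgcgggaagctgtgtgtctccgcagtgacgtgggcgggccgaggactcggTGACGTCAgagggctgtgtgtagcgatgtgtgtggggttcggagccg
BAMBI: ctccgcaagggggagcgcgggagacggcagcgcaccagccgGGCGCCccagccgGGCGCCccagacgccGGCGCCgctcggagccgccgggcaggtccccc
They are chr20:31605039-31605288 for ID1, chr15:66701986-66702235 for SMAD6, chr3:170357465-170357707 for SKIL and chr10:28677271-28677371 for BAMBI, all on the plus strand.

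Each window searched ran from 250 bases before to 50 bases after a RefSeq start, on both strands. All 8 members matched the RefSeq promoters, with 10 starts, among 35116 promoters in all. The capitals in ID1 are a TATA box (TATAAA), which was found on both strands in overlapping positions, and this motif was in 11.5% of all promoters and in those of ID1, ID4 and SMAD7. The capitals in SMAD6 are the palindromic SMAD box GTCTAGAC, from 12 to 5 bases before the start, which only 0.202% of all promoters held. SKIL held the BMP SMAD motif GGCGCC and, from 54 to 47 bases before its start, the cyclic AMP response element TGACGTCA, a motif of 1.85% of all promoters. BAMBI held GGCGCC at 3 places, and 19.2% of all promoters held that motif at least once. The AP-1 site TGANTCA (7.71% of all promoters) and the EGR site GCGTGGGCG (0.794%) were not found in any of these windows. A match is a description of the letters and was not tested as a binding site.

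The total count was 37951275 to 44358912 per library, and libraries of one group correlated at 0.985 to 0.988 across genes. HMOX1, the heme-degrading enzyme that heme induces and here a check of the hemin labels, was at 7.26 to 9.19 CPM (reads of a gene scaled to one library size with TMM factors) in the libraries without hemin and at 61.9 to 188 CPM in those with it. The 2 groups with hemin differed, as HMOX1 was at 61.9 to 65.5 CPM with hemin alone and at 146 to 188 CPM with both. The melanocyte lineage markers SOX10 (548 to 769 CPM), MITF (8.31 to 21.5 CPM) and S100B (6.59 to 12.7 CPM) were present in every library, whereas the pigment genes MLANA, PMEL, TYR and DCT reached at most 1.11 CPM. Of 12 markers of keratinocytes, fibroblasts, leukocytes and endothelium, KRT14 (2.62 to 3.92 CPM) was highest, and KRT1 and PTPRC had no counts in any library.

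Each comparison used edgeR's quasi-likelihood F test over all 14287 genes that passed the filter, with Benjamini-Hochberg adjustment, and a gene was called at an adjusted p under 0.05. Fold changes are log2 values from that fit, with their SE, and 95% intervals are given where a gene was not called. Comparisons that share libraries are not independent of each other. Every comparison with Ctrl uses the same 3 Ctrl libraries.

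Hemin lowered ID1, ID3, SMAD7 and BAMBI in untreated cells, and ID3 fell the most, by 5.06-fold. Adding hemin to DdBIC lowered 6 of the 7 tested members, in a comparison that called 18.4% of all tested genes lower, and the calls of SKIL and SMAD6 there were lost in some alternatives. DdBIC alone changed the members in both directions, with SMAD6 and ID3 lower and BAMBI, ID2 and SKIL higher, of which the calls of ID2 and SKIL, like that of SMAD7 with hemin alone, were lost in several alternatives. The plot of levels by library shows all of these values.

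**Figure D1:**
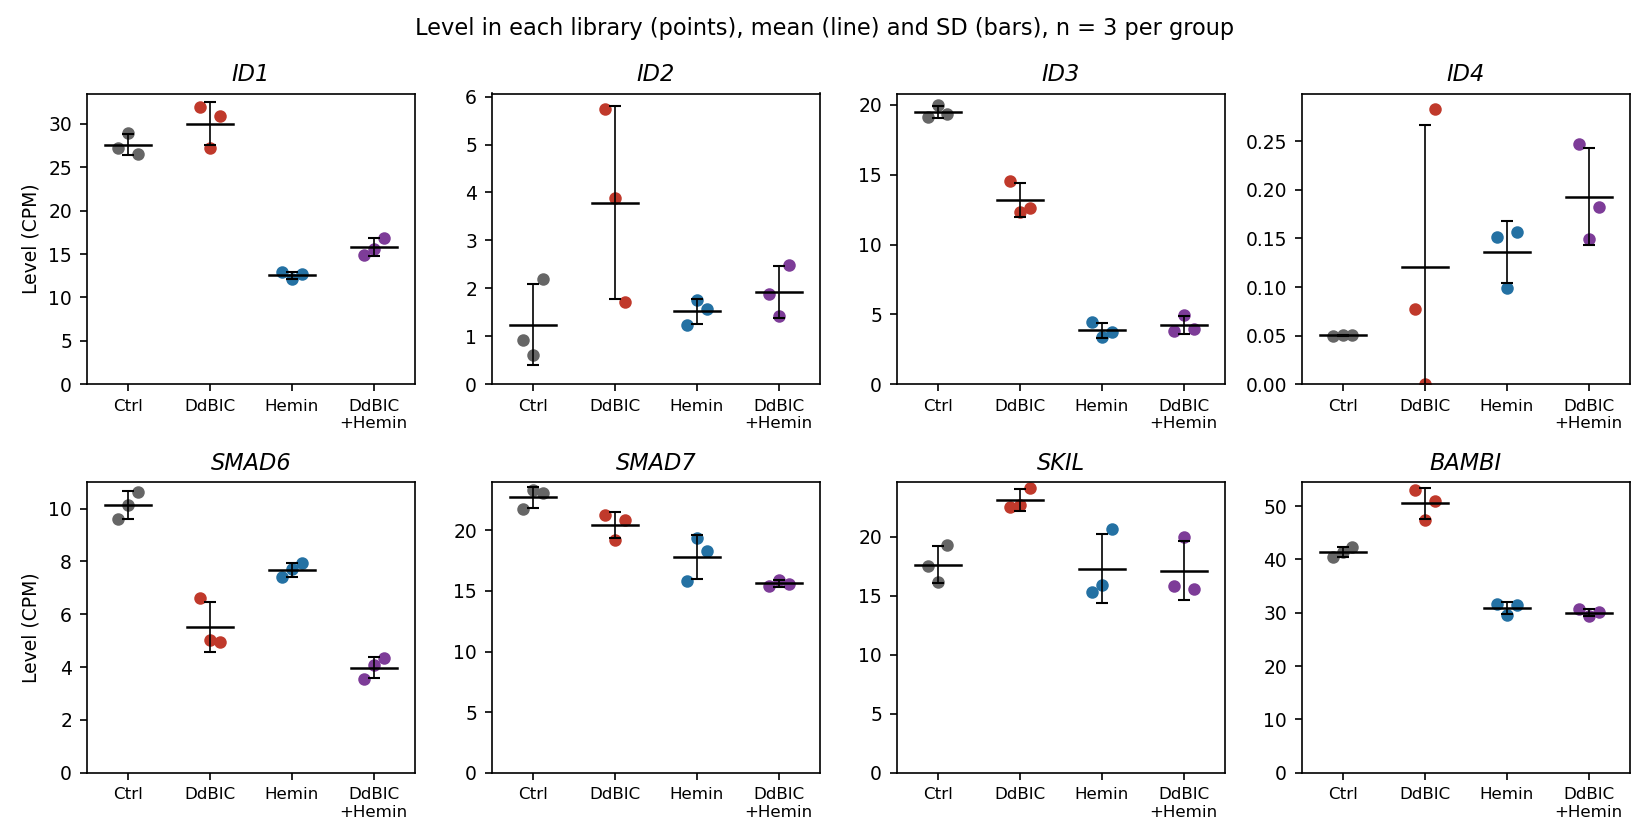
Level of each of the 8 genes in CPM (linear axis from 0, a scale of its own per gene) in the 3 libraries of each group, with the mean as a line and the SD as bars. ID1 and ID3 are lower in all 6 libraries with hemin than in all 6 without it, and ID4 stays under 0.3 CPM.

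ID1 had 27.3, 28.97 and 26.6 CPM in the Ctrl libraries and 32.0, 27.2 and 30.8 CPM in the DdBIC libraries. With hemin it had 12.9, 12.1 and 12.7 CPM, and with both it had 14.9, 15.6 and 16.9 CPM. All libraries with hemin were thus below all libraries without it, and the DdBIC libraries overlapped the Ctrl libraries. Hemin lowered ID1 2.20-fold (log2 -1.14, SE 0.072, edgeR adjusted p = 1.2e-05). On top of DdBIC, hemin lowered it 1.90-fold (log2 -0.93, SE 0.071, adjusted p = 3.19e-06). DdBIC alone gave a log2 difference of 0.12 (95% interval -0.035 to 0.28), which was not called (edgeR adjusted p = 0.210). Since these are bulk libraries, fewer cells that express a gene and less of its RNA per cell cannot be told apart.

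ID3 was the member with the largest fall. It had 19.1, 20.0 and 19.3 CPM in Ctrl and 14.5, 12.4 and 12.6 CPM with DdBIC. With hemin it had 4.45, 3.36 and 3.74 CPM, and with both 3.80, 4.95 and 3.94 CPM. The Ctrl libraries were highest, the DdBIC libraries stood between, and the 6 libraries with hemin were lowest and overlapped each other. Hemin lowered ID3 5.06-fold (log2 -2.34, SE 0.13, edgeR adjusted p = 4.41e-06) and DdBIC lowered it 1.48-fold (log2 -0.56, SE 0.12, adjusted p = 0.00291). Hemin added to DdBIC lowered it 3.11-fold (log2 -1.64, SE 0.12, adjusted p = 2.62e-06). DdBIC+Hemin was 4.60-fold below Ctrl (log2 -2.20, SE 0.12, adjusted p = 2.02e-06).

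ID2 was low and spread widely between replicates. Its counts were 37, 24 and 86 in Ctrl, 223, 158 and 73 with DdBIC, 49, 71 and 60 with hemin and 76, 57 and 109 with both. One DdBIC library had fewer reads than one Ctrl library, so these groups overlapped. DdBIC against Ctrl gave a 3.04-fold rise (log2 1.61, SE 0.51, edgeR adjusted p = 0.0303). The call was lost without Ctrl replicate 1 or 2 or without DdBIC replicate 1 or 2 (adjusted p = 0.0651 to 0.112), with the replicate block (0.0525) and when the other groups were left out of the fit (0.112). The log2 fold change itself ranged from 1.17 without DdBIC replicate 1 to 2.30 without Ctrl replicate 3, the Ctrl library with 86 counts. No other comparison called ID2, and its log2 difference with hemin alone was 0.30 (95% interval -0.87 to 1.46).

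ID4 had 2, 2 and 2 counts in Ctrl, 3, 0 and 12 with DdBIC, 6, 4 and 6 with hemin and 10, 6 and 8 with both. The highest of these was 0.284 CPM. A count of 0 allows up to 3 counts, or 0.0738 CPM in that DdBIC library, for counting error only. At this depth no fold change is given for ID4.

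The inhibitory SMADs differed from each other. SMAD6 had 9.60, 10.2 and 10.6 CPM in Ctrl and 6.62, 5.02 and 4.94 CPM with DdBIC. It had 7.41, 7.72 and 7.95 CPM with hemin and 3.53, 4.08 and 4.33 CPM with both. No 2 of the 4 groups overlapped, in the order Ctrl, Hemin, DdBIC and DdBIC+Hemin. DdBIC lowered SMAD6 1.83-fold (log2 -0.88, SE 0.12, edgeR adjusted p = 0.000166), and hemin on top of DdBIC lowered it by another 1.39-fold (log2 -0.47, SE 0.12, adjusted p = 0.0119). The latter call was lost when the other groups were left out of the fit (adjusted p = 0.0638). Hemin alone gave a log2 difference of -0.40 (95% interval -0.66 to -0.14), which was not called (edgeR adjusted p = 0.0929) but was called by DESeq2 (0.0374), when the other groups were left out of the fit (0.0414) and without DdBIC replicate 1 (0.0363).

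SMAD7 moved less. It had 21.7, 23.3 and 23.1 CPM in Ctrl, 21.3, 19.2 and 20.8 CPM with DdBIC, 15.8, 19.4 and 18.3 CPM with hemin and 15.4, 15.9 and 15.6 CPM with both. The libraries with both stood below every Ctrl and DdBIC library and reached into the range of the hemin libraries. Hemin added to DdBIC lowered SMAD7 1.31-fold (log2 -0.39, SE 0.074, edgeR adjusted p = 0.00215), and DdBIC+Hemin was 1.45-fold below Ctrl (log2 -0.54, SE 0.074, adjusted p = 0.000736). Hemin alone lowered it 1.27-fold (log2 -0.35, SE 0.074, edgeR adjusted p = 0.0237). That call was lost without Ctrl replicate 2 or 3 or Hemin replicate 1 or 3 and when the other groups were left out of the fit (adjusted p = 0.0604 to 0.0862). With DdBIC alone the log2 difference was -0.15 (95% interval -0.31 to 0.0094), not called (edgeR adjusted p = 0.130) except with upper-quartile factors (0.0350).

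SKIL, the SMAD co-repressor, had 17.5, 16.1 and 19.3 CPM in Ctrl and 22.6, 22.7 and 24.2 CPM with DdBIC. It had 15.3, 15.9 and 20.6 CPM with hemin and 15.8, 20.0 and 15.6 CPM with both. The 3 DdBIC libraries were the highest of the 12, and the other groups overlapped. The rise with DdBIC was 1.31-fold (log2 0.39, SE 0.13, edgeR adjusted p = 0.0316), and the fall with hemin on top of DdBIC was 1.35-fold (log2 -0.43, SE 0.13, adjusted p = 0.0226). The rise was not called without Ctrl replicate 1 or 2 or any one of the 3 DdBIC replicates, nor with upper-quartile factors (adjusted p = 0.0589 to 0.108). The fall was not called without DdBIC replicate 3 or DdBIC+Hemin replicate 1 or 3 (adjusted p = 0.0697 to 0.0809). Hemin against Ctrl gave a log2 difference of -0.030 (95% interval -0.31 to 0.25).

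BAMBI, the decoy receptor, changed by small amounts with small errors. It had 40.5, 41.5 and 42.4 CPM in Ctrl and 53.0, 47.4 and 51.0 CPM with DdBIC. It had 31.7, 29.7 and 31.5 CPM with hemin and 30.6, 29.4 and 30.1 CPM with both. DdBIC libraries were above all Ctrl libraries, and the libraries with hemin were below them, with no overlap in either direction. DdBIC raised BAMBI 1.22-fold (log2 0.28, SE 0.048, edgeR adjusted p = 0.000775) and hemin lowered it 1.34-fold (log2 -0.42, SE 0.048, adjusted p = 0.000806). Hemin added to DdBIC lowered it 1.68-fold (log2 -0.75, SE 0.049, adjusted p = 8.07e-07).

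**Figure D2:**
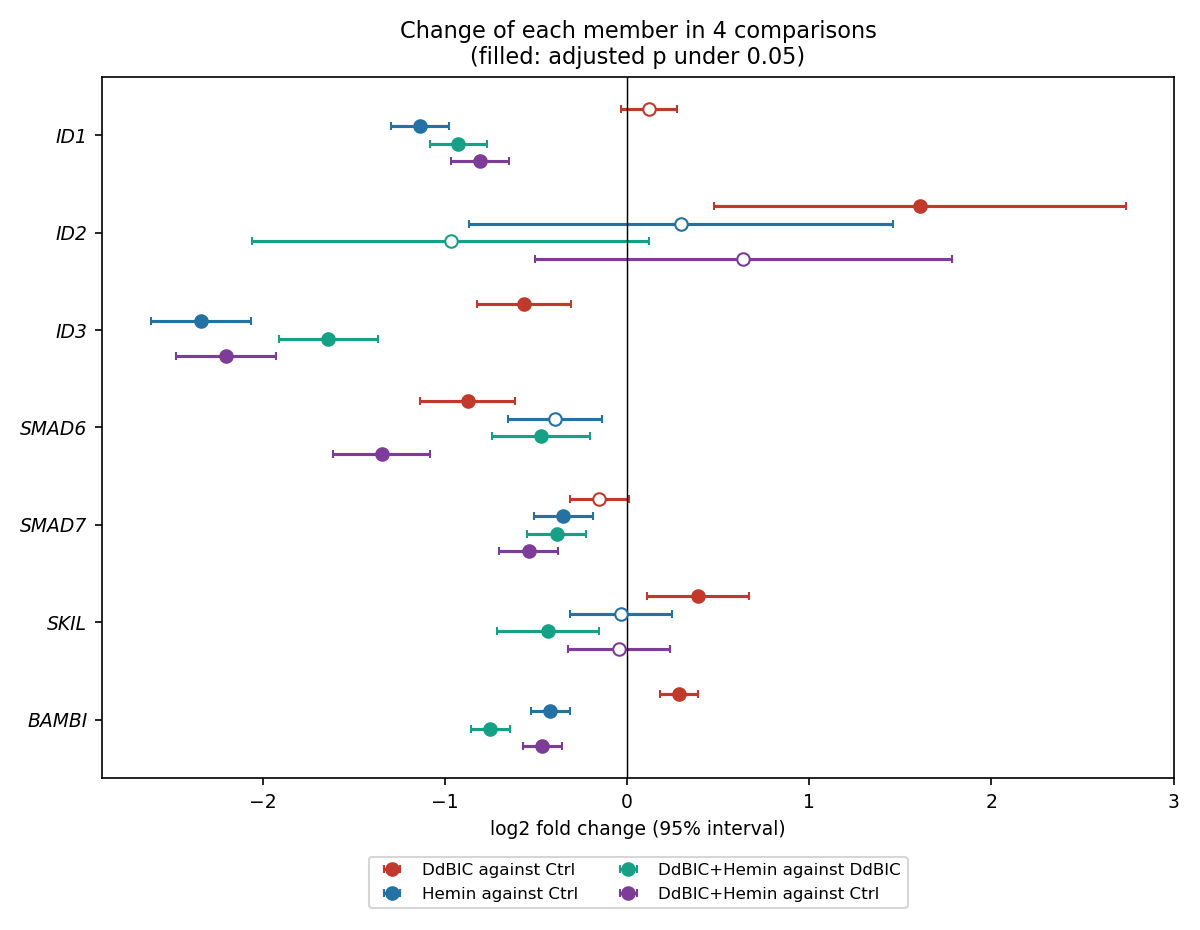
The log2 fold change of the 7 tested genes (points, horizontal axis) with its 95% interval in 4 comparisons, filled where the edgeR adjusted p is under 0.05. ID3 reaches -2.34 with hemin against Ctrl, SMAD6 is lowest with both against Ctrl (-1.35), and the intervals of ID2 are the widest.

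The counts of members were set beside those of all genes. The members were chosen with earlier results of these data known, so the shares are a description and not a test of the group. With DdBIC against Ctrl, 5 of the 7 tested members were called, 3 higher and 2 lower, where 37.2% of all tested genes were called (20.0% higher and 17.2% lower). The count was 3 (1 higher and 2 lower) without Ctrl replicate 1 or 2 or without DdBIC replicate 1 or 2. The members' median log2 fold change was 0.12 and that of all tested genes -0.0082. With hemin against Ctrl, 4 of 7 were called, all lower, where 4.06% of all tested genes were called (1.47% higher and 2.59% lower), and the medians were -0.40 and 0.0026. Hemin alone was the comparison in which fewest genes were called, and ID1, ID3, SMAD7 and BAMBI were among the 580. The call of SMAD7 there depended on single libraries, as given above, and the calls of ID1, ID3 and BAMBI held in 19 of 19 alternatives.

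With hemin added to DdBIC, 6 of 7 members were called and all were lower, where 31.9% of all tested genes were called (13.5% higher and 18.4% lower). The count was 5, without SKIL, when DdBIC replicate 3 or DdBIC+Hemin replicate 1 or 3 was left out, and SMAD6 was not called when the other groups were left out of the fit. The median was -0.75 for the members and -0.010 for all tested genes. ID2, the member not called, had a log2 difference of -0.97 (95% interval -2.06 to 0.12). With both against Ctrl, 5 of 7 were called, all lower, against 12.4% of all tested genes (5.66% higher and 6.74% lower). The members' median there was -0.54, and SKIL and ID2 were not called, with log2 differences of -0.043 (95% interval -0.32 to 0.24) and 0.64 (-0.51 to 1.78).

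Whether the DdBIC effect was the same with and without hemin was tested by the interaction, in which the log2 change by DdBIC in the absence of hemin is subtracted from that in its presence. ID3 had a positive interaction (log2 0.70, SE 0.17, edgeR adjusted p = 0.0170). DdBIC lowered ID3 by 0.56 on the log2 scale without hemin, while with hemin the difference was 0.14 (95% interval -0.14 to 0.41). BAMBI had a negative interaction (log2 -0.33, SE 0.068, edgeR adjusted p = 0.00709), with a rise of 0.28 without hemin and a difference of -0.044 (95% interval -0.15 to 0.063) with it. These 2 of 7 compare with 16.6% of all tested genes called for the interaction (6.40% higher and 10.2% lower). The other 5 members were not called, and their intervals ran from -0.011 to 0.43 for ID1, -2.86 to 0.33 for ID2, -0.44 to 0.30 for SMAD6, -0.27 to 0.19 for SMAD7 and -0.80 to -0.0074 for SKIL.

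The comparison of DdBIC+Hemin with Hemin was added after the data were seen. It called 2 of 7 members, against 6.80% of all tested genes (3.71% higher and 3.09% lower). SMAD6 was 1.93-fold lower (log2 -0.95, SE 0.12, edgeR adjusted p = 0.000843), beside a 1.83-fold fall with DdBIC in the absence of hemin. ID1 was 1.26-fold higher (log2 0.33, SE 0.072, edgeR adjusted p = 0.0185), with no overlap between the groups. The call of ID1 was lost without Hemin replicate 2 or 3 or DdBIC+Hemin replicate 3 and when the other groups were left out of the fit (adjusted p = 0.0555 to 0.0718).

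Levels were compared between genes only per length, on the deposited TPM values. In Ctrl the order of the means was ID1 (56.3 TPM), BAMBI (45.9), ID3 (32.4), SMAD7 (16.7), SKIL (7.34), SMAD6 (5.89), ID2 (1.87) and ID4 (0.034), and no 2 neighbours overlapped between libraries. With hemin, BAMBI (34.0 TPM) came before ID1 (25.3), SMAD7 (12.7), SKIL (8.55) and ID3 (6.35), and SKIL overlapped both of its neighbours. ID3 thus went from the third place to the fifth. With DdBIC, ID1 (61.9 TPM) and BAMBI (55.9) overlapped, and with both, BAMBI (32.5) and ID1 (31.5) did. The count behind 1 TPM, scaled to the library, varied up to 1.45-fold between libraries for SKIL and 1.54-fold for ID2, but at most 1.02-fold for ID1, ID3 and BAMBI, so the TPM of SKIL and ID2 did not follow their counts in one ratio.

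**Figure D3:**
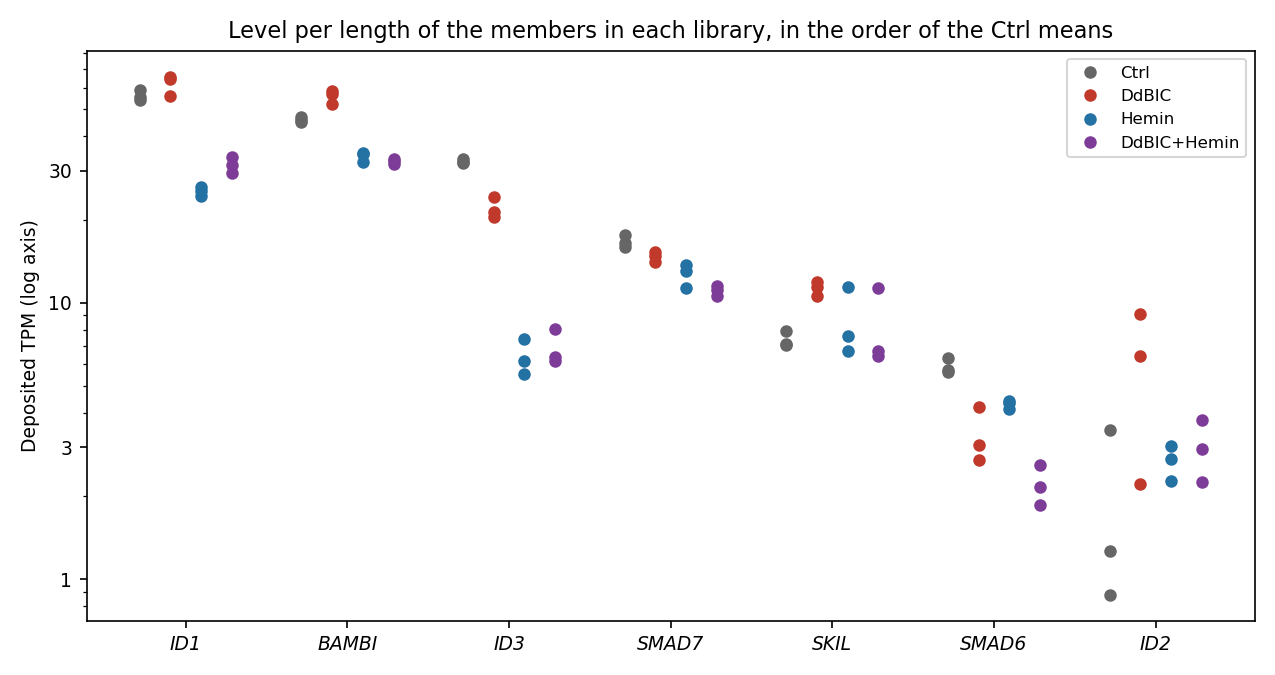
Deposited TPM (log axis) of the 7 members that passed the filter, in each library of the 4 groups, ordered by the Ctrl mean. Hemin takes ID3 from 32.4 to 6.35 TPM, below SMAD7 and into the range of SKIL.

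The rest of the pathway was described with a list of 76 genes in 7 roles, of which 65 passed the filter. DdBIC against Ctrl called 35 of the 65, 23 higher and 12 lower, where 37.2% of all tested genes were called (20.0% higher and 17.2% lower). The median log2 fold change of the 65 was 0.031, beside -0.0082 for all tested genes. Among the ligands, INHBA, which encodes the activin A subunit, rose by 3.48 (SE 0.072) on the log2 scale from 20.6 ± 0.858 to 230.2 ± 22.5 CPM (SD, n = 3), and BMP2 rose by 1.24 (SE 0.19) from 1.56 ± 0.451 to 3.69 ± 0.291 CPM. Of 12 receptor genes, 5 fell and 1 rose, the activin receptor ACVR2A (log2 0.70). Of the 6 signal-transducing SMADs, 2 rose and 1 fell, the BMP-branch SMAD1 (log2 -0.37). The secreted activin antagonist FST rose (log2 0.81), and so did NEDD4L (log2 0.61), a ubiquitin ligase that marks SMADs for degradation.

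The target genes outside the 8 members moved in both directions with DdBIC. Of 14 tested, 8 rose and 2 fell. JUNB, an AP-1 transcription factor that many stimuli induce, rose from 57.6 ± 2.73 to 724.5 ± 68.7 CPM (SD, n = 3; log2 3.65). SNAI1, which encodes a repressor of E-cadherin, rose too (log2 1.01). ATOH8, a helix-loop-helix gene that BMP receptors induce, fell (log2 -1.58), from 5.46 ± 0.258 to 1.83 ± 0.244 CPM. Other BMP targets of the list rose, namely the homeobox genes MSX1 (log2 0.50, SE 0.048) and MSX2 (log2 0.91, SE 0.13), which were singled out after their values were seen. Of the 5 tested partners of the ID proteins, ETS1 rose (log2 1.03) and 1 other fell. The edgeR adjusted p of the genes named for this comparison was at most 0.0257.

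Hemin alone called 10 of the 65 pathway genes, 2 higher and 8 lower, where 4.06% of all tested genes were called (1.47% higher and 2.59% lower). The medians were -0.060 for the 65 and 0.0026 for all tested genes. The calls comprised 3 of 12 receptors and 2 of 10 co-repressors and brakes, all lower. ATOH8 fell by 1.12 on the log2 scale (SE 0.13, edgeR adjusted p = 0.000844), to 2.50 ± 0.243 CPM (SD, n = 3). MSX1 and MSX2 were not called with hemin alone, with log2 differences of 0.15 (95% interval 0.042 to 0.26) and -0.036 (-0.33 to 0.26). TWIST1 (log2 -0.61), a helix-loop-helix partner of E proteins, PMEPA1 (log2 -0.62), which encodes a membrane protein that holds back SMAD2 and SMAD3, FST (log2 -0.64) and ACVR2B (log2 -0.30), an activin receptor, also fell, with edgeR adjusted p-values of at most 0.0363. Leaving out any 1 Ctrl or Hemin library took the 10 calls to between 5 and 7.

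Hemin added to DdBIC called 24 of the 65, 4 higher and 20 lower, where 31.9% of all tested genes were called (13.5% higher and 18.4% lower). The medians were -0.10 for the 65 and -0.010 for all tested genes. INHBA fell by 2.46 and JUNB by 3.02 on the log2 scale, to 41.8 ± 1.53 and 89.2 ± 11.2 CPM (SD, n = 3). CTGF (log2 -1.34), a matrix-associated growth factor, and HES1 (log2 -1.16), a transcriptional repressor that Notch signaling induces, fell too, as did FST (log2 -0.81), PMEPA1 (log2 -0.58), ACVR2A (log2 -0.48), ETS1 (log2 -0.47) and SMAD3 (log2 -0.25). The edgeR adjusted p of these genes was at most 0.00865. ATOH8 was at 1.01 ± 0.115 CPM with both, and its fall against Ctrl was 2.43 on the log2 scale (SE 0.14, edgeR adjusted p = 2.36e-06). With both against Ctrl, 9 of the 65 were higher and 10 lower (5.66% and 6.74% of all tested genes), among them INHBA (log2 1.02), the activin antagonist FSTL3 (log2 0.59) and NEDD4L (log2 0.23) higher and TWIST1 (log2 -0.96), TGFBR3 (log2 -0.39) and SMAD3 (log2 -0.15) lower (edgeR adjusted p at most 0.0486).

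**Figure D4:**
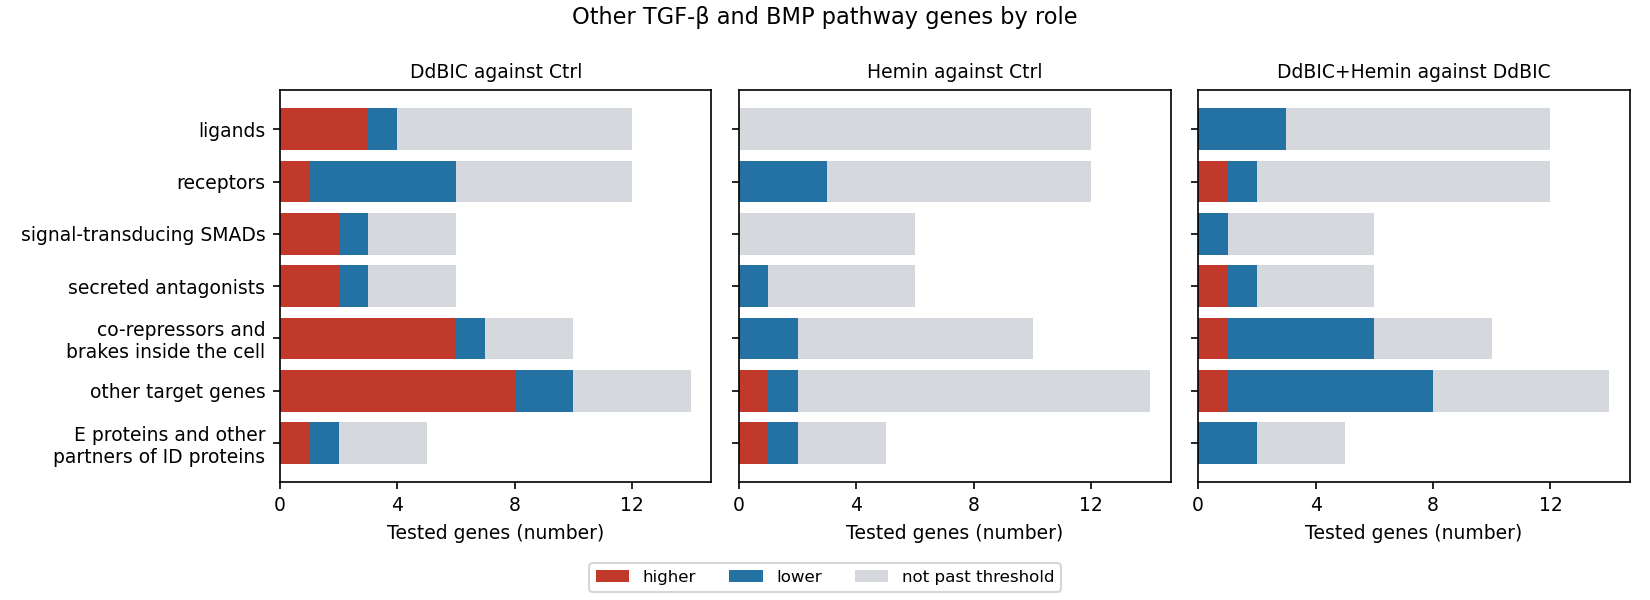
Number of tested pathway genes outside the 8 members (horizontal axis) in each of 7 roles that were higher (red), lower (blue) or not past the threshold (grey, edgeR adjusted p of 0.05) in 3 comparisons. With DdBIC 8 of 14 other target genes were higher, with hemin alone 1 was higher and 1 lower, and with hemin added to DdBIC 7 were lower.

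The interaction called 16 of the 65 pathway genes, 2 higher and 14 lower, where 16.6% of all tested genes were called (6.40% higher and 10.2% lower). INHBA (log2 -2.52), JUNB (log2 -2.82), NOG (log2 -1.71), which encodes the BMP antagonist noggin at 0.277 to 1.23 CPM, CTGF (log2 -1.29), HES1 (log2 -1.20), BMP2 (log2 -1.15), ETS1 (log2 -0.86), NEDD4L (log2 -0.54) and SMAD3 (log2 -0.31) had negative terms, and ENG (log2 0.36), a co-receptor, a positive one (edgeR adjusted p at most 0.0181). In DdBIC+Hemin against Hemin, 7 were higher and 5 lower (3.71% and 3.09% of all tested genes), with INHBA (log2 0.96), FST (log2 0.65) and PMEPA1 (log2 0.49) higher and ATOH8 (log2 -1.31), TWIST1 (log2 -0.34) and SMAD3 (log2 -0.21) lower (edgeR adjusted p at most 0.0348).

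For each tested member, the genes with the most similar profile of log2 CPM over the 12 libraries were listed as a description. The 12 points fall into 4 treatment groups, so such a correlation mostly follows the group means, and no p is given. ID1 was closest to ALAS1, which encodes the first enzyme of heme synthesis (r = 0.98), MXD4 and FBXL20 (both 0.96). ID3 was closest to PHIP (r = 0.98), ARHGEF11 (0.97) and FZD7 (0.96), BAMBI to SHISA2 (0.99), LPIN2 (0.98) and the transcription factor gene SOX4 (0.98), and SMAD6 to the fatty acid elongase gene ELOVL6 (0.97), LOXL4 (0.97) and POU3F2 (0.96). SMAD7 was closest to AHRR (r = 0.95), PATZ1 (0.93) and TBX2 (0.93). SKIL was closest to WDR59 (r = 0.93), TPST1 (0.91) and ZNF778 (0.91), and ID2 to CLEC3A (0.91), ZBTB9 (0.91) and NPIPB6 (0.88). The 3 nearest genes of any member held no other member. Between tested members, r ran from -0.38 (ID2 and SMAD6) to 0.94 (ID1 and ID3).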

How the data were processed

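RNA-seq was performed on total RNA of A375 cells in 4 groups of 3 libraries, assigned by the treatment label. The authors deposited, for 20263 genes, the count of reads per gene without normalization, a TPM value scaled by length and to one sum per library, and an FPKM value scaled by length and depth. The submitters' processing notes name Trim Galore, Subread, featureCounts and hg38, while the aligner's settings, the annotation release and the use of strand are not given in the sources used here. TPM was used for levels between genes, and FPKM was not used.

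The count tests used edgeR 4.0.16 (R 4.3.3). The filter was filterByExpr, which left 14287 genes. All 12 libraries entered 1 quasi-likelihood model with TMM factors, robust dispersions and a mean for each group, leaving 8 residual degrees of freedom. The SE was obtained by dividing the size of the log2 fold change by the square root of F, and p-values were adjusted (Benjamini-Hochberg) over all genes tested. Levels are TMM-scaled CPM. With 37951275 to 44358912 counts per library, a gene without reads can have up to 3 counts, which is under 0.1 CPM. The 5 comparisons were DdBIC against Ctrl, Hemin against Ctrl, DdBIC+Hemin against DdBIC and against Ctrl, and the interaction. DdBIC+Hemin against Hemin was added after the data were seen.

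The members, the pathway list of 76 genes, the markers and the tests were chosen with earlier results of these data known. Named genes were the 8 members, HMOX1, pathway genes called with a log2 change of 1 or more in size and otherwise the largest called change per role, and the 3 genes closest to each tested member by Pearson's r of log2 CPM. One gene that this rule names is not reported here. Alternatives were DESeq2 1.42.0, upper-quartile factors, library size only, no filter, at least 10 counts in every sample, the replicate number as a block, leaving the other groups out, and leaving out each library. Positions came from the deposited table, overlaps from GENCODE 29 and promoters from RefSeq (GRCh38.p14), with motifs searched in Python 3.11.15.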

Additional observations from a re-analysis of the deposited data

Results flagged for a closer look

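For 2 of the 7 tested members, the change by DdBIC was not the same in the presence of hemin as in its absence, by the interaction term of the edgeR fit. For ID3 the term was 0.70 on the log2 scale (SE 0.17, edgeR adjusted p = 0.0170), and over 18 alternatives it stayed between 0.57 and 0.82, with an adjusted p of 0.00149 to 0.0415. For BAMBI it was -0.33 (SE 0.068, edgeR adjusted p = 0.00709), and over 18 alternatives it stayed between -0.37 and -0.28, with an adjusted p of 0.00145 to 0.0211. Of all tested genes, 16.6% were called for this term.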

How the results depend on the processing

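Most values kept their direction and their side of the threshold under the alternatives run. The calls of ID3 and BAMBI in the 4 comparisons with Ctrl or DdBIC and in the interaction, of ID1 in the 3 of them that called it, and of SMAD6 with DdBIC against Ctrl and with both against Ctrl held in every alternative. With single libraries left out, the members called with DdBIC against Ctrl numbered 3 to 5 and the genes called with hemin against Ctrl 272 to 623. In DdBIC+Hemin against Hemin, 1 to 3 members and 612 to 934 genes were called with single libraries left out, and 1 member and 569 genes with the other groups left out. Fewer libraries enter each of these fits, and no other cause was tested.

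The values that changed sign belonged to members not called in that comparison. With single libraries left out, ID2 with hemin against Ctrl ranged from -0.033 to 0.996 and SKIL from -0.18 to 0.051. SKIL ranged from -0.17 to 0.026 with both against Ctrl and from -0.14 to 0.13 with both against Hemin. The interaction ranged from -0.14 to 0.077 for SMAD6 and from -0.12 to 0.027 for SMAD7, and that of SMAD7 was 0.016 with upper-quartile factors. Upper-quartile factors moved the median of all genes by at most 0.061 (log2).

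The deviations of same-numbered libraries correlated only weakly, at -0.046 to 0.081 in 18 pairs, but 8 of 12 libraries correlated best with their own number. These values do not settle whether the replicate numbers pair the libraries. With the replicate block, ID2 with DdBIC against Ctrl had a log2 fold change of 1.68 and lost its call, no other call of a member changed, and 5084 genes were called there, 408 with hemin against Ctrl and 2078 for the interaction. The 3 libraries per group and the low counts of ID2 and ID4 limit what can be seen of these genes.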
